A study of Mus musculus with 185 samples.

Results

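The genes described here encode 10 heat shock proteins of the cytosol and the mitochondrion, out of 57010 mouse genes in the count table. They were chosen by name, with earlier results of these data known. The genes are Hspa1a, Hspa1b, Hspa8, Hsph1, Dnajb1, Hsp90aa1, Hsp90ab1, Hspb1, Hspd1 and Hspe1. All 10 had a row in the table and all 10 passed the filter on low counts in each study. The values come from total RNA of brain regions of young adult male C57BL/6 J mice, sequenced after depletion of ribosomal RNA. In the 16 h study, pair-housed mice were kept on chow, switched to a high-fat diet (HFD) or fasted, with 6 mice and 3 cages per diet. In the 24 h study, mice housed singly were kept on chow (9 mice) or fasted (10 mice). Of each mouse 5 regions were sequenced. Both studies sampled the hypothalamus, hippocampus, superior colliculus and inferior colliculus, and the fifth region was the prefrontal cortex at 16 h and the zona incerta at 24 h. The headings of the count columns gave the mouse and the diet but not the region, so the value of a mouse is the sum of its 5 columns, written as CPM, the count scaled to a library size of 1000000. Columns with more counts weigh more in the sum.

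Heat shock proteins are molecular chaperones, which bind unfolded or partly folded proteins and help them to reach or keep their shape. Hsp70 proteins work in cycles of ATP binding and hydrolysis that J-domain proteins start and Hsp110 proteins reset, and they pass part of their clients to Hsp90. Some of these genes are expressed at all times in brain, whereas others are switched on by heat shock factor 1 when unfolded proteins accumulate. In mitochondria, the chaperonin Hsp60 and its lid Hsp10 fold imported proteins.

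The sums of the 5 columns ranged from 57962237 to 161577364 counts per mouse, and 27 single columns were low in counts or in genes detected, most of them in the 24 h study. Mitochondrial transcripts made up 3.78 to 4.98% of counts at 16 h and 8.57 to 16.7% at 24 h. Markers of neurons, astrocytes, oligodendrocytes and microglia were detected in every mouse, as were those of endothelial and mural cells. Summed CPM of 4 choroid plexus markers lay between 12.6 and 565 at 16 h and between 19.8 and 3953 at 24 h. Chow mouse 1423 and fasted mouse 1454 of the 24 h study had their superior colliculus tubes exchanged during handling, and the study states that the sample records were corrected. Without these mice the count of heat shock genes called stayed at 0 in the 24 h study. In tissue pieces of this kind, fewer cells of a type and less RNA per cell cannot be told apart. The studies were sequenced in separate runs, so levels were compared within a study. The 24 h study was itself split over separate flowcells. By the study's account, a first block of 24 of its samples lacked detectable RNA, was sequenced apart and was discarded by the authors. The column headings do not mark this block, and the sums hold all 5 columns of each mouse, this block included. Mice sharing a cage were treated as separate samples, and a fit on cage sums is given beside the result that depends on it.

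The promoters of the stress-inducible genes show where the pair Hspa1a and Hspa1b resembles each other and where heat shock elements could be read. Heat shock factor 1 binds alternating repeats of the letters GAA, so the motifs GAANNTTC and TTCNNGAA were searched over the 250 bases before each annotated start. Each motif reads the same on both strands, and matches can overlap. Of 32851 promoters in the RefSeq table, 12.8% held at least 1 of these motifs, and 0.466% held both motifs overlapping so that 3 units alternate. Promoters of 7 of the 10 genes were matched. Hspa8, Hsp90aa1 and Hsp90ab1 were not matched. The windows were listed for build GRCm38.p6 and matched by sequence to GRCm39, whose coordinates are given. Those of Hspa1a (chr17:35191133-35191382) and Hspa1b (chr17:35178215-35178464), both on the minus strand and free of annotated exons, are shown because reads of this pair are hard to separate. Capitals mark a GAANNTTC match.
Hspa1a: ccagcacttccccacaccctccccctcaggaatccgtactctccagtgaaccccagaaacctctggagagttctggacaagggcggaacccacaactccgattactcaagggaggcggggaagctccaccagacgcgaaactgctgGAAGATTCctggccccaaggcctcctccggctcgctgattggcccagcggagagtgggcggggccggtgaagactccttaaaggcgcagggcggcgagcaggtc
Hspa1b: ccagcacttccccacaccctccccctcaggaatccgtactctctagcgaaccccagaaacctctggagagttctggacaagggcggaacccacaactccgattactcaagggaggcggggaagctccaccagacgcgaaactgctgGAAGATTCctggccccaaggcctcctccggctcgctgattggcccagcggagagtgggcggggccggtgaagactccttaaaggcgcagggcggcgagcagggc

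These windows differed at 3 positions, and each held 1 match at the same distance from the start. Stretches of 30 bases are shown for 3 further genes because they hold every match in those windows. Those of Hspe1 (chr1:55127212-55127241) and Hspb1 (chr5:135916655-135916684) lie on the plus strand, and that of Hsph1 (chr5:149559816-149559845) on the minus strand.
Hspe1: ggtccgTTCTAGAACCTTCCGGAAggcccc
Hspb1: aGAAGTTTCcagatgggggcaGAACCTTCc
Hsph1: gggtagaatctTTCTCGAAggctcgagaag

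The Hspe1 stretch held 3 overlapping matches that join into alternating units, and the same bases lie in a window listed for Hspd1 on the opposite strand. In the annotation used here they fall within an exon of Hspd1, whose longest model spans Hspe1 on chromosome 1. Hspb1 held 2 separate matches, before its first annotated exon, and Hsph1 held 1, within an annotated exon of Hsph1. No match was found in either window listed for Dnajb1. A match describes letters in a window and does not show that a factor binds there.

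Hsp90ab1, the constitutive cytosolic Hsp90, had the highest level in chow mice when CPM was divided by the length of all annotated exons of the gene. On that scale its level was 145.8 ± 7.94 CPM per kilobase at 16 h (mean ± SD, n = 6) and 165.8 ± 7.36 at 24 h (n = 9). Hsp90aa1, the inducible Hsp90, followed with 79.2 ± 7.28 CPM per kilobase at 16 h, and Hspa8, the constitutive Hsp70, with 69.5 ± 6.52 CPM per kilobase. These last places turned when the length of the canonical transcript was used instead, where Hspa8 stood at 252 ± 23.6 and Hsp90aa1 at 103.2 ± 9.49 CPM per kilobase. Hsph1, which encodes an Hsp110, stood at 17.6 ± 2.47 per kilobase of all exons and Hspd1, which encodes Hsp60, at 17.3 ± 1.23, a difference smaller than either SD. Dnajb1, a J-domain partner of Hsp70, had 9.81 ± 0.928 and Hspe1, which encodes Hsp10, 9.53 ± 0.643, again within their SD. With the canonical length at 16 h, Hspe1 stood at 21.9 ± 1.48 CPM per kilobase, above Dnajb1 at 10.4 ± 0.989, and Hsph1 at 31.7 ± 4.44, above Hspd1 at 26.7 ± 1.90. Per kilobase of all exons at 24 h, Hspd1 stood above Hsph1, with 24.2 ± 1.78 against 18.4 ± 1.60 CPM per kilobase, and Hspe1 above Dnajb1, with 14.4 ± 2.22 against 9.09 ± 0.839 (n = 9). At the low end were Hspb1, the small heat shock protein Hsp27, with 2.87 ± 0.721 CPM per kilobase, Hspa1b with 0.835 ± 0.256 and Hspa1a with 0.398 ± 0.0985. The last 2 encode the stress-inducible Hsp70 and sit side by side on chromosome 17.

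These levels depend on how far reads could be placed. STAR counts for a gene only reads that map to 1 place, and 74.6% of the 51-base windows of the canonical Hspa8 transcript matched more than 1 place in GRCm39. A window across an exon junction with a single copy elsewhere was not counted as recurring. The reads were paired, and longer than 51 bases at 24 h. Shares of single windows are therefore a rough guide and not the share of read pairs lost. The share was 63.1% for Hsp90aa1, 62.04% for Hspa1b, 60.1% for Hspa1a, 59.6% for Hspb1, 45.2% for Hspd1 and 31.6% for Hspe1. It was 6.63% for Hsp90ab1 and 0.459% for Dnajb1, and no window of Hsph1 recurred. For Hspa1a and Hspa1b the copies lie mostly in each other, since 58.6% and 62.04% of their windows were shared within the pair. The split between this pair is therefore uncertain. Exons of other genes covered 34.9% of the exon bases of Hsp90ab1 and 19.01% of those of Hspa1a, and the strand setting of the counts is not given in the sources used here.

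**Figure D1:**
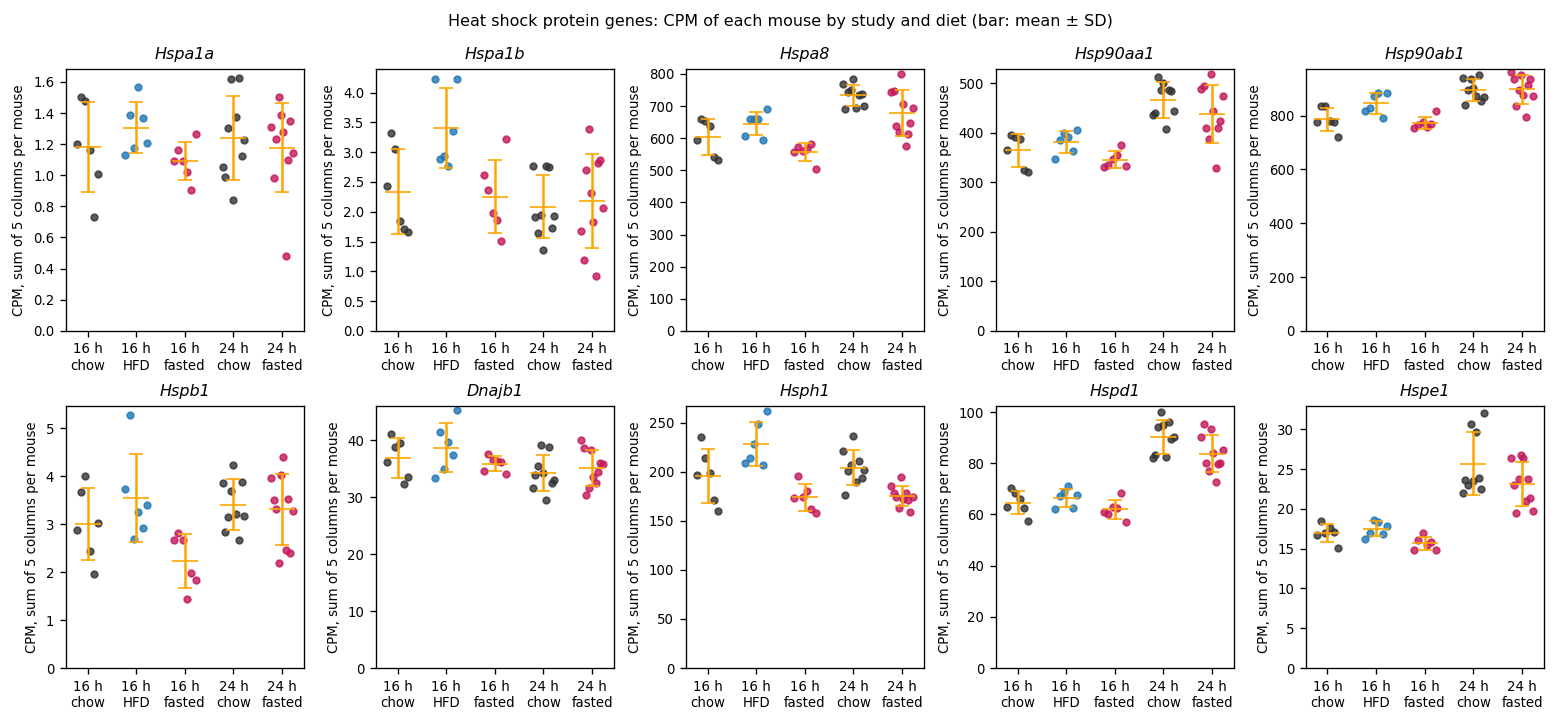
CPM of the sum of 5 columns (vertical axis, from 0) for each mouse (points) in the 5 groups, with the mean and SD as bars, 1 panel per gene. In the Hsph1 panel the 6 fasted mice of the 16 h study lie between 158.1 and 195 CPM and the 6 HFD mice between 207 and 262.

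In the 16 h study, the fasted mice had lower fitted levels than the HFD mice for each of the 10 genes, and none of these differences passed the threshold in the main test (edgeR's quasi-likelihood test on counts summed per mouse, Benjamini-Hochberg adjusted p under 0.05 over 29746 genes). In that comparison 0.219% of all genes were called, and 49.6% of all genes had a fitted change below 0. The median log2 change of the 10 genes was -0.20, against 0.00106 over all genes tested, and single genes ranged from -0.66 to -0.12. At an unadjusted p under 0.05, 8 of the 10 were lower, against 5.14% of all genes. The 10 genes vary together between mice, as described further on, so these counts are not counts of independent genes. The 10 were also chosen with earlier results of these data known, so the shares over all genes do not make these counts a test.

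Hsph1, whose product recharges Hsp70 by nucleotide exchange, came nearest to the threshold. The gene lies at chr5:149537636-149560156 on the minus strand of GRCm39. Its CPM in the HFD mice was 207 at the lowest, 221 at the median and 262 at the highest. In the fasted mice the corresponding values were 158.1, 173.5 and 195, so the groups did not overlap, which held for 0.43% of all genes in this direction. The fitted log2 change from HFD to fasted was -0.41 (SE 0.0861, 95% interval -0.59 to -0.23), with an adjusted p of 0.0535 by edgeR. The median of the chow mice lay between, with a lowest value of 159.7, a median of 198 and a highest of 235 CPM, and overlapped both groups. The adjusted p was 0.0336 when clock time of euthanasia entered the model, 0.0466 with the round of cages, 0.00367 by DESeq2 and 0.0206 by limma with equal weight per column. It was 0.411 on sums of the 2 mice of a cage, which leave 3 values per diet. Over the fits that left out 1 mouse it ranged from 0.0323 to 0.165, and it was under 0.05 without chow mouse 2, chow mouse 6 or fasted mouse 8.

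Hspa8 (chr9:40711630-40731039, plus strand), the Hsp70 that brain cells express at all times, had 594.6 CPM at the lowest, 659 at the median and 689 at the highest in the HFD mice. The fasted mice had 503, 564 and 581.04 CPM, again without overlap. The log2 change was -0.23 (SE 0.0577), with an adjusted p of 0.109 by edgeR, 0.0343 by DESeq2 and 0.046 by limma with equal weight per column. On cage sums no gene was called in this comparison, Hspa8 included. Hspa1b had 2.77 CPM at the lowest, 3.15 at the median and 4.24 at the highest in the HFD mice. In the fasted mice it had 1.504, 2.16 and 3.22 CPM, and the groups overlapped. Its log2 change was -0.59 (SE 0.206, adjusted p = 0.243 by edgeR). For its neighbour Hspa1a, of which the lowest count of a mouse was 63 in these groups, the log2 change was -0.27 (SE 0.15, adjusted p = 0.533 by edgeR). Dnajb1, with a median of 38.6 CPM in HFD mice and 36.3 in fasted mice, had a log2 change of -0.12 (SE 0.0686, adjusted p = 0.549 by edgeR).

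Both Hsp90 genes overlapped between HFD and fasted mice. Hsp90ab1 ranged from 792 to 884 CPM in the HFD mice and from 755 to 816 in the fasted mice, with a log2 change of -0.14 (SE 0.0478, adjusted p = 0.232 by edgeR). Hsp90aa1 ranged from 347 to 404 and from 330 to 375 CPM, with a log2 change of -0.16 (SE 0.0585, adjusted p = 0.287 by edgeR). Hspb1 (chr5:135916760-135918417, plus strand), which holds unfolded proteins without using ATP, had the most negative log2 change of the 10, -0.66 (SE 0.193), with an adjusted p of 0.165 by edgeR and 0.0451 by DESeq2. Hspb1 was not called on cage sums. Its CPM was 2.68 at the lowest, 3.32 at the median and 5.27 at the highest in HFD mice, and 1.44, 2.32 and 2.82 in fasted mice. The highest HFD value belonged to 1 mouse that lay apart from the next, at 3.73 CPM.

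The genes of the mitochondrial pair each overlapped between fasted and HFD mice. Hspe1 ranged from 14.8 to 17.0 CPM in fasted mice and from 16.2 to 18.6 in HFD mice, with a log2 change of -0.17 (SE 0.0509, adjusted p = 0.175 by edgeR). Hspd1 ranged from 57.1 to 68.3 and from 62.02 to 71.002 CPM, with a log2 change of -0.12 (SE 0.0497, adjusted p = 0.38 by edgeR). By the start times in the sample records, a chow, a fasted and an HFD cage followed one another 3 times, and each such set is called a round here. Within each of the 3 rounds, the mean log2 CPM of fasted mice was below that of HFD mice for all 10 genes. In every round the HFD mice were euthanized after the fasted mice, so the rounds cannot tell diet and order apart. For Hsph1 the difference was -0.21, -0.48 and -0.52 in the rounds, and for Hspb1 -0.70, -0.63 and -0.71.

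Values of other gene groups in the same mice were as follows. The summed CPM of 10 immediate early genes, which answer to handling and activity, ranged from 123.4 to 293 with a median of 199 in fasted mice and from 183.4 to 394 with a median of 308 in HFD mice, with none of the 10 called. The sum of 5 blood genes had a median of 97.5 in fasted and 122.996 in HFD mice, also with none called. Of 4 endothelial markers, Slco1a4 was called higher in fasted mice by 0.30 on the log2 scale (adjusted p = 0.0343 by edgeR). Their part in the heat shock gene values was not tested.

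**Figure D2:**
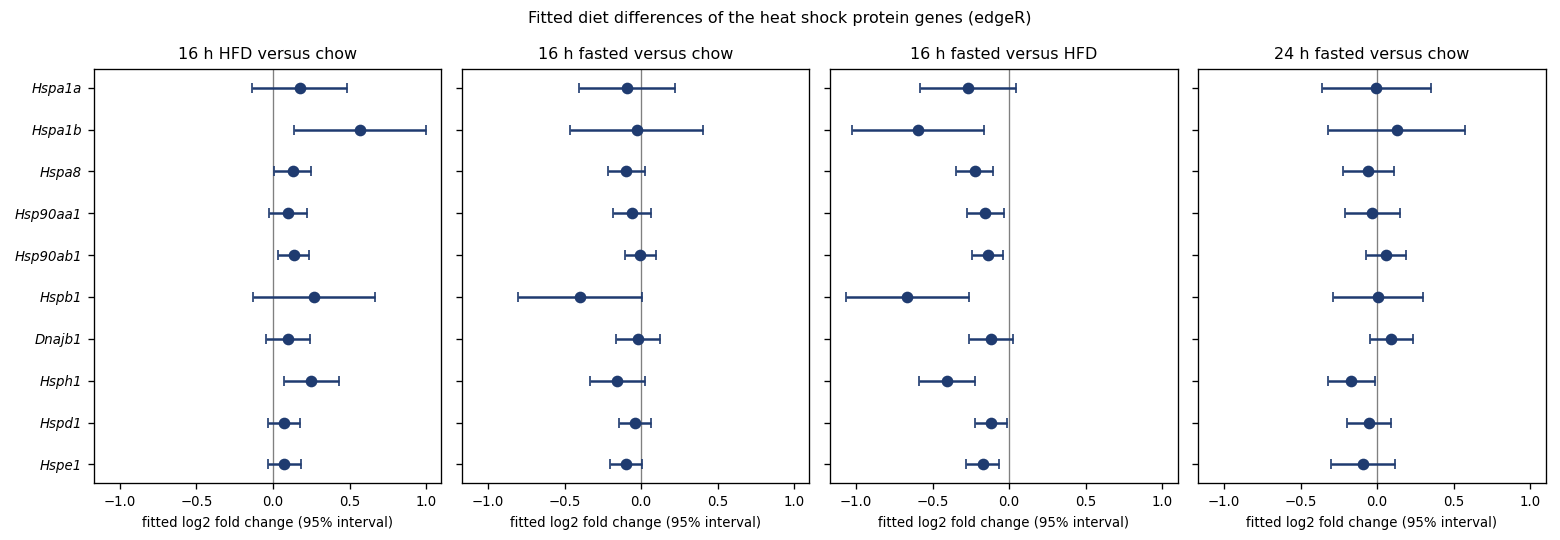
Fitted log2 fold change (horizontal axis; points) with 95% interval (bars) for each of the 10 genes, in 1 panel per diet comparison. All 10 points lie below 0 for fasted against HFD, all 10 above 0 for HFD against chow, and the points lie on both sides of 0 at 24 h.

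Against chow, the switch to HFD for 16 h gave a fitted log2 change above 0 in each of the 10 genes, against 47.3% of all genes, and none was called. No gene at all was called in this comparison by edgeR (0.0% of 29746, with 2914 at an unadjusted p under 0.05 and 5 called by DESeq2). The HFD mice are shared with the comparison above, so these directions are not separate evidence. The median log2 change of the 10 was 0.13, against -0.00797 over all genes. At an unadjusted p under 0.05, 4 of the 10 were higher, against 4.41% of all genes, namely Hspa1b, Hspa8, Hsp90ab1 and Hsph1. Hspa1b had 1.66 CPM at the lowest, 2.14 at the median and 3.32 at the highest in chow mice, which overlap the HFD values given above. Its log2 change was 0.57 (SE 0.205, adjusted p = 0.503 by edgeR). Hsph1 had a log2 change of 0.25 (SE 0.0859) and Hsp90ab1 of 0.14 (SE 0.0478), each with an adjusted p of 0.503 by edgeR. Of the 10 genes, 4 lay above 0 in all 3 rounds. By round, 5 of the 10 lay above 0 in the first, 8 in the second and all 10 in the third. The third round had the widest difference for Hspa1b, 1.20, against 0.33 and 0.29 in the others. Hspa1b was not alone in this, since Hsph1 had 0.54 against 0.00364 and 0.24. Mean log2 CPM of Hsph1 in chow mice was 7.18 in the third round, against 7.58 and 7.54. Hspb1 did not follow, with 0.41 against 0.47 and -0.05.

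Fasting for 16 h against chow gave fitted log2 changes below 0 in all 10 genes, as in 51.3% of all genes. The mice are those of the comparisons above. The changes ranged from -0.40 to -0.0045, with a median of -0.08 against -0.00340 over all genes. None of the 10 was called and none had an unadjusted p under 0.05, where 7.62% of all genes did. No gene was called in this comparison by edgeR (0.0%, with 2267 at an unadjusted p under 0.05 and 19 called by DESeq2). Hspb1 had the most negative change, -0.40 (SE 0.193, 95% interval -0.80 to 0.00655, adjusted p = 0.658 by edgeR). Its chow mice ranged from 1.97 to 4.00 CPM and overlapped the fasted mice. Hsp90ab1 had a change of -0.0045 (SE 0.0478), with an interval from -0.10 to 0.10. In the first 2 rounds all 10 genes lay below 0. In the third, the other 9 lay above 0, up to 0.44 for Hspa1b, and Hspb1 alone lay below 0, at -0.29.

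After 24 h of fasting, 11.4% of 29011 genes were called by edgeR, 1676 higher (5.78%) and 1631 lower (5.62%), and none of the 10 heat shock genes was among them. With equal weight per column, limma called 876 genes higher and 2208 lower. The median log2 change of the 10 was -0.02, against -0.00440 over all genes. At an unadjusted p under 0.05 there was 1 of the 10, Hsph1, against 24.2% of all genes. It is the gene that came nearest to the threshold at 16 h. Hsph1 had 176.2 CPM at the lowest, 201 at the median and 237 at the highest in chow mice. In fasted mice it had 158.9, 173.9 and 194 CPM, so the groups overlapped. Its log2 change was -0.17 (SE 0.0729, 95% interval -0.32 to -0.02), with an adjusted p of 0.153 by edgeR. With equal weight per column, limma gave a change of -0.22 and an adjusted p of 0.00526.

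The other Hsp70 system genes had intervals on both sides of 0 at 24 h. Hspa8 ranged from 691 to 785 CPM in chow mice and from 576 to 801 in fasted mice, with a log2 change of -0.06 (95% interval -0.22 to 0.11). For Hspa1b, with 1.36 to 2.76 CPM in chow and 0.914 to 3.39 in fasted mice, the change was 0.13 (95% interval -0.32 to 0.58). With equal weight per column its sign turned, to -0.42 with an adjusted p of 0.0776 by limma. Hspa1a, from 0.842 to 1.63 CPM in chow and from 0.483 to 1.51 in fasted mice, had a change of -0.00513 (95% interval -0.36 to 0.35). Dnajb1, from 29.5 to 39.1 and from 30.4 to 40.03 CPM, had one of 0.09 (95% interval -0.05 to 0.24).

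Hsp90aa1 ranged from 407 to 513 CPM in chow and from 328 to 519 in fasted mice at 24 h, with a log2 change of -0.03 (95% interval -0.21 to 0.15). Hsp90ab1, with 841 to 950 and 797 to 962 CPM, had a change of 0.06 (95% interval -0.08 to 0.19). Hspb1 ranged from 2.67 to 4.22 CPM in chow and from 2.19 to 4.40 in fasted mice, with a change of 0.00691 (95% interval -0.29 to 0.30). For Hspb1 and both Hsp90 genes the fasted mice covered the whole range of the chow mice. Hspd1 ranged from 82.03 to 100.2 CPM in chow and from 72.7 to 95.3 in fasted mice, with a change of -0.05 (95% interval -0.20 to 0.09). Its partner Hspe1 ranged from 21.98 to 32.1 and from 19.5 to 26.8 CPM, with a change of -0.10 (95% interval -0.30 to 0.11). Over the 27 low columns of both studies the median of Hspe1 was 44.8 CPM, against 22.2 in kept chow and 19.5 in kept fasted columns at 24 h. The highest chow values, in mice 1432, 1442 and 1452, came with mitochondrial shares of 12.3, 16.7 and 13.0%. Over the alternative fits, including that without low columns, the change lay between -0.13 and -0.08. The part of these libraries in the spread of Hspe1 was not tested.

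Some cell type markers were called in the same 24 h comparison, where 5.78% of all genes were called higher and 5.62% lower. Lower in fasted mice were 3 of 4 microglial markers, 2 of 5 astrocyte markers, 2 of 4 endothelial markers, 2 of 4 mural markers and 2 of 3 markers of meningeal fibroblasts, while 3 of 10 immediate early genes were higher and no neuronal or oligodendrocyte marker was called. The lists did not move as one, since the 3 other astrocyte markers and the 2 other endothelial markers had changes above 0, none of them called. The median log2 change was -0.53 for the microglial list, 0.04 for the astrocyte list, -0.13 for the endothelial list, -0.25 for the mural list and -0.998 for the fibroblast list. The summed microglial markers ranged from 84.9 to 122.1 CPM in chow and from 65.1 to 112.8 in fasted mice. Their part in the heat shock gene values was not tested.

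The fasting effect at 24 h was set against that at 16 h in 1 fit of all 37 mice. None of the 10 genes was called, where 1.7% of 30849 genes were called by edgeR, and none had an unadjusted p under 0.05, where 10.8% of all genes did. Differences of log2 changes ranged from -0.01 for Hsph1 to 0.41 for Hspb1 (SE 0.244, adjusted p = 0.607 by edgeR). Length of the fast, its hour of start, sequencing run, read length, housing, hemisphere and 1 of 5 regions change together here. These cannot be told apart. Clock times of euthanasia overlapped between the studies, and with clock time as a covariate none of the 10 was called either.

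Related chaperone genes were taken from 7 lists with 62 genes in all, every one of them tested. At 16 h, none was called for HFD or fasted against chow. In fasted against HFD mice, 1 of 62 was called, lower (1.61%, against 0.219% of all genes called in either direction), and the median log2 change was -0.04. At 24 h, 3 of 62 were called higher (4.84%, against 5.78% of all genes) and 5 lower (8.06%, against 5.62%), with a median of 0.02.

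**Figure D3:**
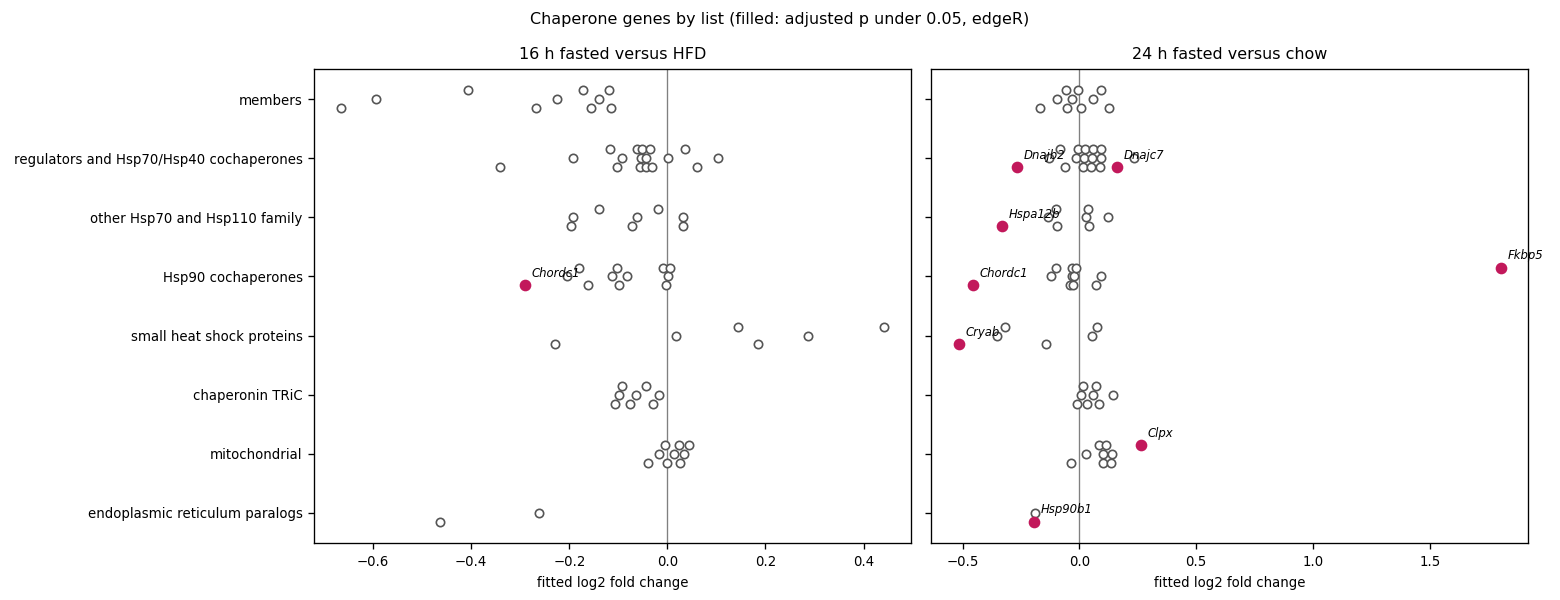
Fitted log2 fold change (horizontal axis) of each gene (points) by list, with the 10 heat shock genes as the members row, for fasted against HFD at 16 h and fasted against chow at 24 h, with filled points for an adjusted p under 0.05. Chordc1 is filled in both panels, and Fkbp5 lies farthest to the right at 24 h, at 1.81.

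Among Hsp90 cochaperones, 1 of 12 was called higher and 1 lower at 24 h. Fkbp5, which binds Hsp90 in steroid receptor complexes and is induced by glucocorticoids, had 19.1 CPM at the lowest, 28.6 at the median and 36.3 at the highest in chow mice. In fasted mice it had 45.9, 92.1 and 134.4 CPM, so every fasted mouse lay above every chow mouse. It rose by 1.81 on the log2 scale (SE 0.18, adjusted p = 1.1e-06 by edgeR), a fold of 3.50. The rise differed from the 16 h effect by 1.47 (SE 0.249, adjusted p = 0.000471 by edgeR). Chordc1, a partner of Hsp90 that is itself induced by heat, had 73.4 CPM at the lowest, 80.1 at the median and 84.2 at the highest in chow mice and 51.1, 56.3 and 61.05 in fasted mice. It fell by 0.45 (SE 0.057, adjusted p = 1.65e-05 by edgeR), again without overlap.

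Chordc1 was also the gene called at 16 h between fasted and HFD mice. It had 92.6 CPM at the lowest, 96.6 at the median and 99.2 at the highest in HFD mice, and 66.6, 80.2 and 86.6 in fasted mice. The log2 change was -0.29 (SE 0.0581, adjusted p = 0.0447 by edgeR). This call was lost in 14 of 18 fits that left out 1 mouse, with the adjusted p ranging from 0.0264 to 0.126, and was 0.411 on cage sums. Its 16 h and 24 h fasting effects against chow differed by -0.28 (SE 0.0875, adjusted p = 0.117 by edgeR).

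Among the regulators and Hsp70 cochaperones, 1 of 17 rose and 1 fell at 24 h. Dnajc7, a J-domain protein that passes clients between Hsp70 and Hsp90, ranged from 77.1 to 92.5 CPM in chow and from 83.7 to 101.9 in fasted mice, and rose by 0.16 (SE 0.0391, adjusted p = 0.00883 by edgeR). With equal weight per column it was no longer called (adjusted p = 0.128 by limma). Dnajb2, a J-domain protein found mainly in neurons, ranged from 70.1 to 97.9 and from 56.8 to 88.4 CPM, and fell by 0.27 (SE 0.0721, adjusted p = 0.019 by edgeR). Of 8 other Hsp70 and Hsp110 genes, Hspa12b, known from endothelial cells, ranged from 10.1 to 14.8 and from 7.93 to 11.7 CPM and fell by 0.33 (SE 0.0636, adjusted p = 0.00141 by edgeR). Of the 4 endothelial markers, Flt1 and Cldn5 fell in the same comparison by 0.27 and 0.52, while Pecam1 had a change of 0.01 and Slco1a4 of 0.18, neither of them called.

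Of 6 small heat shock proteins, Cryab, the αB-crystallin, ranged from 43.8 to 85.2 CPM in chow and from 30.9 to 58.0 in fasted mice at 24 h, and fell by 0.52 (SE 0.144, adjusted p = 0.0227 by edgeR). Without chow mouse 1442 the change was -0.46 and no longer called. Of 9 further mitochondrial chaperones and proteases, Clpx, which unfolds proteins for degradation, ranged from 27.9 to 36.3 and from 31.6 to 43.6 CPM and rose by 0.26 (SE 0.0694, adjusted p = 0.0165 by edgeR). None of the 8 subunits of the cytosolic chaperonin TRiC was called in any comparison.

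The relatives in the endoplasmic reticulum were Hspa5, the Hsp70 of that compartment, and Hsp90b1, its Hsp90. Between HFD and fasted mice at 16 h neither overlapped. Hspa5 ranged from 195 to 248 CPM in HFD and from 121.6 to 187 in fasted mice, with a log2 change of -0.46 (SE 0.122, adjusted p = 0.12 by edgeR). Hsp90b1 ranged from 133.02 to 158.3 and from 101.2 to 131.7 CPM, with a change of -0.26 (SE 0.0691, adjusted p = 0.119 by edgeR). DESeq2 called both, with adjusted p of 0.0300 for Hspa5 and 0.0439 for Hsp90b1, and so did limma with equal weight per column, with 0.0372 and 0.0240. On cage sums neither was called. At 24 h Hsp90b1 fell by 0.20 (SE 0.0551, adjusted p = 0.0247 by edgeR), a call lost without chow mouse 1441, chow mouse 1442 or fasted mouse 1453, where the change was between -0.19 and -0.18. Hspa5 had a change of -0.19 at 24 h (SE 0.0734, adjusted p = 0.104 by edgeR), and was called without fasted mouse 1424 or 1425 with changes of -0.23 and -0.22. Its 24 h change was -0.32 with equal weight per column, also called (adjusted p = 0.0136 by limma).

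Mice of 1 diet differed from one another in several heat shock genes at once. Log2 CPM was centred on the mean of its study and diet, and each pair of genes was correlated over the 37 mice. All 45 pairs had a positive Pearson's r, with a median of 0.50 and a range from 0.08 to 0.92. In 34 pairs the Benjamini-Hochberg adjusted permutation p over the 45 pairs was under 0.05. The same counts were not made for pairs of other genes, so they do not set the heat shock genes apart. Other genes were ranked, out of 16010, by their r with the mean of the heat shock genes. In that ranking Clpx had r of 0.46 at rank 3613, so many other genes had a higher r. Fkbp5 had r of 0.13 at rank 8307. All genes of a mouse were read from the same 5 libraries, and the part of depth and of the weighting of regions in r was not tested. Within the studies the median r was 0.58 at 16 h and 0.61 at 24 h. With equal weight per column, which also leaves out the low columns, the median was 0.36 and the range -0.22 to 0.84. The parts of weighting and of low columns were not tested apart.

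**Figure D4:**
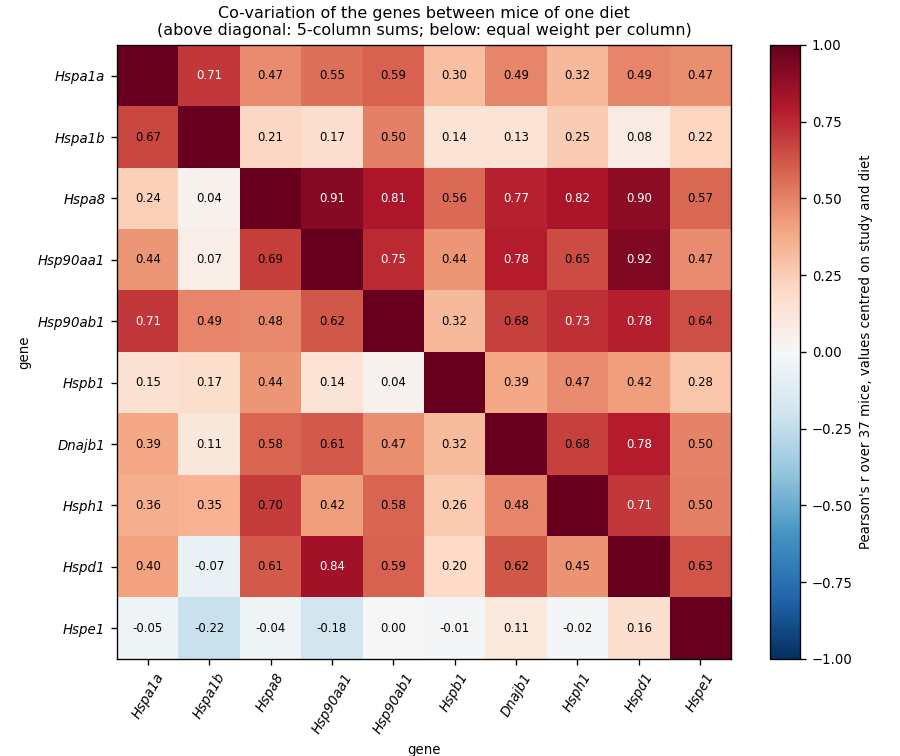
Pearson's r between genes (both axes; colour scale from -1 to 1) over 37 mice after centring on study and diet, from sums of 5 columns above the diagonal and with equal weight per column, low columns left out, below it. Above the diagonal the highest value is 0.92 for Hsp90aa1 and Hspd1, and below it the values of Hspe1 lie between -0.22 and 0.16.

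Hsp90aa1 and Hspd1 were the most alike pair, with Pearson's r of 0.92 and Spearman's rho of 0.92, and adjusted permutation p of 3.46e-05 and 5.62e-05, the smallest that these permutations can give here. The value was 0.90 without the 2 mice farthest from the median of Hsp90aa1, and 0.84 with equal weight per column. Hspa8 and Hsp90aa1 followed with r of 0.91 and rho of 0.86. Hspa1a and Hspa1b, which share most of their sequence, had r of 0.71 and rho of 0.63, with adjusted permutation p of 0.000197 and 0.00051, and r of 0.59 without the 2 farthest mice. Hspd1 and Hspe1, the neighbours on chromosome 1, had r of 0.63 and rho of 0.58 (adjusted permutation p = 0.00137 and 0.00207), with r of 0.48 without the 2 farthest mice and of 0.16 with equal weight per column.

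The 5 other genes most like the mean of the 10 were Dnaja1, Cct6a, Etf1, Ahsa1 and Tpi1, out of 16010 ranked over the 37 mice. Dnaja1, a J-domain protein, had r of 0.92 and rho of 0.87. Cct6a, a TRiC subunit, had r of 0.92, Etf1, a translation release factor, 0.91, Ahsa1, which activates the ATPase of Hsp90, 0.91, and Tpi1, an enzyme of glycolysis, 0.90. With equal weight per column the ranks were 19 for Dnaja1, 6 for Cct6a, 5 for Etf1 and 23 for Ahsa1, whereas Tpi1 had rank 1164 and r of 0.44.

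Single columns showed how much the genes vary inside a mouse. Over the columns that passed the limits on depth, 86 at 16 h and 72 at 24 h, the highest column of a mouse exceeded its lowest by a median ratio of 1.27 for Hspa8 at 16 h and 1.34 at 24 h. For Hsp90ab1 these ratios were 1.32 and 1.35, and for Hsph1 1.80 and 1.69. Hspa1b had the widest spread, with ratios of 3.89 and 3.85, and Hspa1a had 2.09 and 2.03. Since the columns of a mouse are different regions, this spread holds differences between regions and between libraries, which cannot be told apart here.

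**Figure D5:**
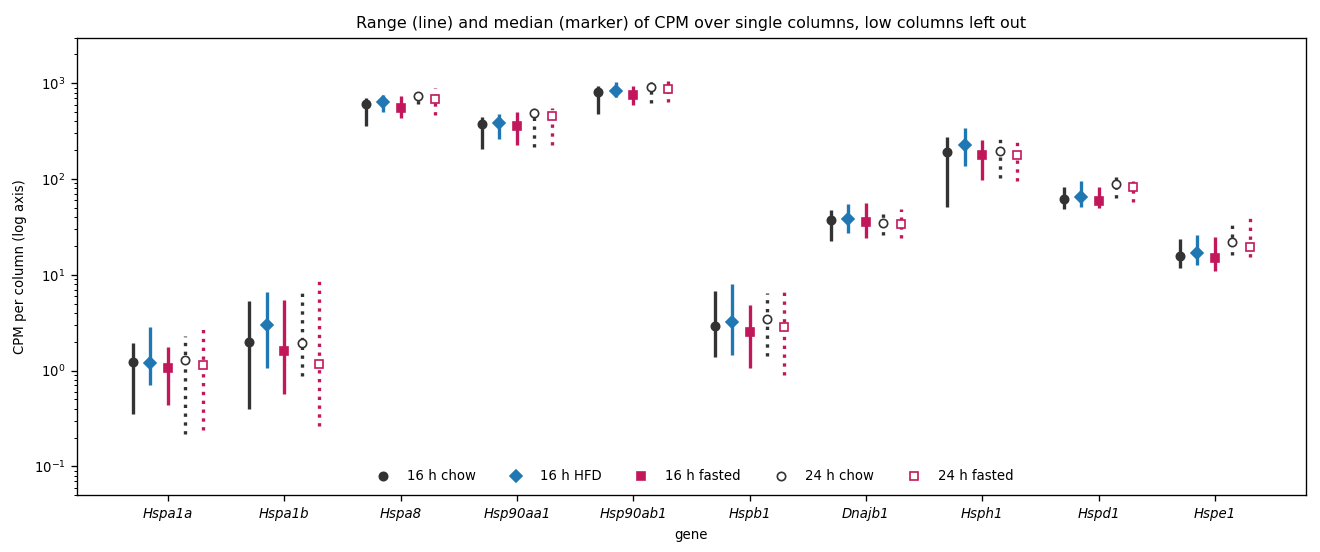
CPM of single columns (vertical log axis) for each gene, as range (line) and median (marker) per group, with low columns left out and dotted lines for the 24 h study. Hsp90ab1, Hspa8 and Hsp90aa1 lie highest, and Hspa1b spans the widest ratio, from 0.266 to 8.91 CPM in fasted mice at 24 h.

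The diets overlapped widely in single columns. Hsph1 ranged from 136.6 to 345 CPM in 30 HFD columns with a median of 226, and from 98.1 to 255 in 27 fasted columns with a median of 176.4 at 16 h. Hspa1b had a median of 3.01 CPM in HFD columns, 1.62 in fasted columns and 1.97 in chow columns at 16 h. At 24 h its median was 1.95 CPM over 34 chow columns and 1.17 over 38 fasted columns, lower in fasted columns although the mean of mouse sums was 2.09 ± 0.533 in chow (SD, n = 9) and 2.18 ± 0.79 in fasted mice (SD, n = 10). No kept column was at 0 for any of the 10 genes. Among the 27 low columns, Hspa1a was at 0 in 9, Hspa1b in 7 and Hspb1 in 6. On the log2 scale, the share of the variance between columns that lay between mice was between 12.5% for Hspe1 at 16 h and 40.3% for Hspb1 in the same study. With few columns per mouse, this raw share is positive even where mice do not differ. It is therefore not a measure of differences between mice.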

How the data were processed

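The deposited table held raw counts per Ensembl gene, which the authors made with STAR 2.7.3a (GeneCounts mode) on GRCm39 after bcl2fastq 2.20.0, so the count unit had no normalization. The annotation release and the strand column are not given in the sources used here. Symbols and coordinates came from GENCODE vM39 (56310 of 57010 genes matched) and promoters from RefSeq. The 5 columns of a mouse were summed. edgeR 4.0.16 (filterByExpr, TMM, quasi-likelihood test) was fitted over 18 mice at 16 h, 19 at 24 h and 37 for the difference of fasting effects, with Benjamini-Hochberg adjustment over all genes and an adjusted p under 0.05 called. SE was taken as |log2 change| divided by the root of F. Low columns had under 1000000 counts or under 16000 genes expected among 500000 drawn counts. These limits were set in earlier work after values were seen. Alternatives used DESeq2 1.42.0, limma 3.58.1, covariates, cage sums and left-out mice. Values with equal weight per column, used for limma and for 1 set of correlations, averaged log2 CPM over kept columns, without the low ones. Correlations used 100000 two-sided permutations of mice within groups. The tests were tried on simulated data. Named genes were all 10 members, called genes of the fixed lists (at most 5 per direction), Hspa5 and Hsp90b1, and the 5 genes most like the members' mean among genes averaging log2 CPM 1 or more. Members and lists were chosen with earlier results of these data known. Each value tested is the sum of 1 mouse, so p-values measure the spread between mice within a study. At 16 h a diet was given to whole cages, so cage mates are not independent units of treatment.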

Additional observations from a re-analysis of the deposited data

Results flagged for a closer look

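Of 50 combinations of a heat shock gene and a group, 3 had a mouse that stood apart from the rest of its group by Dixon's criterion, which flags about 1 in 20 groups by chance. Hspa1a in fasted mouse 1445 of the 24 h study was at 0.483 CPM, with the next mouse at 0.983. This mouse had the smallest sum of counts of the 37, 57962237, and its Hspa1a count was 28. In the 16 h study, fasted mouse 12 had the lowest Hspa8, at 503 CPM with the next at 556, and the highest Hsp90ab1, at 816 CPM with the next at 777.

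For 3 of 62 related chaperone genes the fasting effect differed between 24 h and 16 h by edgeR, where 1.7% of all genes were called. The difference of log2 changes was 1.47 for Fkbp5 (adjusted p = 0.000471), 0.18 for Dnajc7 (adjusted p = 0.0452) and -0.36 for Hspa12b (adjusted p = 0.0308). Dnajc7 lost its call in 22 of 31 fits that left out 1 mouse and Hspa12b in 6. Without a filter on low counts neither was called (adjusted p = 0.118 for Dnajc7 and 0.0716 for Hspa12b by edgeR), nor with equal weight per column (0.263 and 0.12 by limma). Dnajc7 also lost its call with RLE size factors (adjusted p = 0.0729 by edgeR) and without mitochondrial genes (0.0548). Length of the fast, its hour of start, run, read length, housing, hemisphere and 1 of 5 regions cannot be told apart in these values.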

How the results depend on the processing

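Most values kept their direction and call, and the cause of the changes given here was not tested. For fasted against HFD mice 0.219% of genes were called, against 0.054% without a filter on low counts, 0.477% with clock time, 0.879% by DESeq2, 0.447% by limma with equal weight per column, 0 on cage sums and 0 to 0.36% when 1 mouse was left out. Heat shock genes called there were 1 with clock time (Hsph1), 1 with the round (Hsph1), 3 by DESeq2 (Hsph1, Hspa8 and Hspb1), 2 by limma (Hsph1 and Hspa8) and 0 to 1 when 1 mouse was left out, the 1 being Hsph1 without chow mouse 2, chow mouse 6 or fasted mouse 8. DESeq2 called 0.0124% of genes for HFD and 0.0472% for fasted against chow at 16 h. At 24 h limma with equal weight per column called 1 heat shock gene (Hsph1), where it called 10.6% of all 29011 genes. For the difference of fasting effects 1.7% of genes were called, against 1.1% (without 16 h fasted mouse 8) to 2.05% when 1 mouse was left out, and 319 of 505 calls were lower by limma where 228 of 523 were by edgeR.

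Signs turned for changes that no fit named here called. Hspa1b, 16 h fasted against chow, was 0.028 with clock time. At 24 h Hspa1a was 0.0091 with RLE size factors, 0.011 without mitochondrial genes, 0.0042 with clock time and 0.00996 by DESeq2, Hspb1 was -0.14 without low columns, and limma gave Hspa1b -0.42, Hsp90ab1 -0.047 and Hspb1 -0.14. For the difference of fasting effects limma gave Hspa1b -0.27, Hsp90aa1 -0.014, Hsp90ab1 -0.0080, Hspe1 -0.027 and Hspa5 -0.026, and Hspe1 was -0.0038 without low columns, -0.0018 without mitochondrial genes and -0.0076 with clock time. When 1 mouse was left out, log2 changes of 16 h fasted against chow ranged from -0.17 to 0.096 for Hspa1b, from -0.036 to 0.014 for Hsp90ab1 and from -0.060 to 0.0071 for Dnajb1. Those at 24 h ranged from -0.063 to 0.081 for Hspa1a, from -0.086 to 0.0095 for Hsp90aa1 and from -0.050 to 0.076 for Hspb1. The differences of fasting effects ranged from -0.011 to 0.074 for Hspa8, from -0.026 to 0.074 for Hsp90aa1, from -0.076 to 0.038 for Hsph1, from -0.050 to 0.022 for Hspd1, from -0.044 to 0.060 for Hspe1 and from -0.019 to 0.14 for Hspa5. Low counts limit Hspa1a, Hspa1b and Hspb1 most. Mice carry a number of their own in every group, so no replicate number pairs them. At 16 h the round of cages served as the block, with 0.299% of genes called for fasted against HFD mice and 0 for the comparisons with chow.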
